A study of Mus musculus with 12 samples.

Results

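The genes described here are the mouse Pax, Tbx, Gata, Irx, Dlx, Onecut, Sim and Nkx transcription factors together with Wt1. They were chosen by name alone: every protein-coding gene whose symbol is one of those family names followed by a number, and Wt1, at any read count. The rule found 60 of the 55487 genes in the count files, made up of 14 Nkx, 13 Tbx, 9 Pax, 6 Dlx, 6 Gata, 6 Irx, 3 Onecut and 2 Sim genes and Wt1. They were followed in bulk poly(A) RNA-seq of the striatum of 12 mice, 1 library per mouse and 3 mice per group. The HD mice were heterozygous for the neo-deleted zQ175 allele, an expanded CAG repeat knocked into the mouse Huntingtin gene Htt that serves as a model of Huntington's disease. The cGAS-KO;HD mice carried the same allele and lacked cGAS, the cytosolic DNA sensor encoded by Cgas. The cGAS-KO mice lacked cGAS only, and the WT mice were C57BL/6J controls. The series asks whether loss of cGAS alters the disease of the knock-in mice. The sources used here give neither sex, age nor litter, nor which part of Cgas is deleted. In the counts, Xist, an RNA of female cells, lay above the Y-linked Ddx3y in WT replicate 1 and HD replicates 1 and 2. It did so too in cGAS-KO replicate 3 and cGAS-KO;HD replicates 2 and 3, and in no other library. This class of Xist level was thus not balanced between groups with and without the allele.

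These families lay out the embryo. Each encodes a DNA-binding protein that is switched on in certain progenitor domains, helps to fix the identity of their descendants, and is held silent elsewhere, for the most part by Polycomb repressors that mark CpG-rich promoters. A few stay on in the adult striatum. The Dlx genes specify the GABAergic neurons of the ganglionic eminences, Nkx2-1 specifies the interneurons that come from the medial eminence, and Nkx2-2 and Nkx6-2 act in the oligodendrocyte lineage. Others belong to distant tissues: Pax2 and Wt1 to kidney, Nkx6-1 and Onecut1 to pancreas and ventral spinal cord, the Gata genes to blood, heart and gut, and the Tbx genes to heart and limb. The question put to the counts was which members that are silent without the knock-in allele gain reads with it, and which expressed members do not.

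Each library held 59195327 to 72765623 gene counts. Htt averaged 139 ± 7.48 CPM in HD and 173 ± 5.27 CPM in WT, and 135 ± 8.19 CPM in cGAS-KO;HD and 170 ± 13.2 CPM in cGAS-KO (CPM, counts per 1000000 of the TMM-scaled library, mean ± SD, n = 3 each). Cgas averaged 1.03 ± 0.203 CPM in cGAS-KO;HD and 1.15 ± 0.0963 CPM in HD, and 0.777 ± 0.177 CPM in cGAS-KO and 1.41 ± 0.129 CPM in WT. Counted over the whole gene, with the deleted part unknown, it gave little check of the cGAS labels. Markers of striatal projection neurons, the main cell type of the striatum, were abundant in every library and summed to 992.6 to 1932 CPM in HD and 3263 to 4655 CPM in WT, and to 1573 to 1639 CPM in cGAS-KO;HD and 4098 to 5056 CPM in cGAS-KO. In bulk tissue, fewer cells of a type and less RNA per cell cannot be told apart. WT replicate 1 stood apart from the other WT libraries in markers of choroid plexus (1993 CPM, against 153 and 76.56 CPM) and of thalamus and habenula (715.3 CPM, against 397.5 and 257.6 CPM). cGAS-KO replicate 3 stood apart in mitochondrially encoded counts (11.5% of the library, against 5.30% to 9.03% in the other 11) and in cortical neuron markers (1059 CPM, against 309.9 and 199.8 CPM in the other cGAS-KO libraries). Knock-in libraries reached such marker levels too, HD replicate 2 for choroid plexus (2089 CPM) and HD replicate 3 for thalamus and habenula (1097 CPM). Counts of members called are given below for all libraries and for the fit that omits WT replicate 1 together with cGAS-KO replicate 3. They are also given for the single libraries whose loss moved the count by the largest factors, with the range over all single libraries. The fit that omits both leaves Xist above Ddx3y in knock-in libraries alone, so that this class is partly confounded with the allele there.

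The 60 genes ran from silent to abundant in striatum without the knock-in allele. By the mean over the 6 WT and cGAS-KO libraries, 27 members lay under 0.1 CPM and are called silent here, 15 lay between 0.1 and 1 CPM and are called low, and 18 lay at or above 1 CPM and are called expressed. The silent class was made of 9 Nkx, 6 Pax, 6 Tbx, 5 Gata genes and Irx4. No Dlx, Onecut or Sim gene was silent. All 15 low and all 18 expressed members passed the filter on low counts and were tested, but only 3 silent members did (Pax2, Nkx6-1 and Pax5). None of these 3 would have passed on the libraries without the allele, so that among silent members being tested was tied to being high, and their share of calls is no measure of the class.

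The knock-in allele raised 5 genes, and the same 5 rose whether cGAS was present or absent. They were Pax2 and Nkx6-1 of the silent class, Wt1 and Onecut1 of the low class, and Nkx2-2 of the expressed class. In HD against WT, these 5 of 36 tested members were called higher at a p under 0.05 in the quasi-likelihood test of edgeR, adjusted by Benjamini-Hochberg over all 21309 genes tested. Of those genes, 4.1% were called, 304 (1.43%) higher and 569 (2.67%) lower. In cGAS-KO;HD against cGAS-KO, 5 of 36 were again called higher, beside 3.96% of all genes called, 307 (1.44%) higher and 536 (2.52%) lower. Both comparisons together called 160 genes (0.751%) higher. Pax2 and Nkx6-1 were tested only through their knock-in reads, so the share of 5 in 36 is not free of that selection. The low class gave 2 calls among 15 members and the expressed class 1 among 18, in each comparison. No member was called lower in either comparison by edgeR, while 4 in HD against WT and 3 in cGAS-KO;HD against cGAS-KO were lower at an unadjusted p under 0.05. DESeq2's Wald test called 7 members higher and 1 lower in HD against WT, and 9 higher and 2 lower in cGAS-KO;HD against cGAS-KO. With limma-voom 6 were higher and 1 lower in HD against WT, and 5 higher and 0 lower in cGAS-KO;HD against cGAS-KO. With WT replicate 1 and cGAS-KO replicate 3 both left out, the members called higher numbered 10 in HD against WT and 8 in cGAS-KO;HD against cGAS-KO, in both cases with the 5 among them. All genes called in either direction rose in that fit too, from 873 to 3589 and from 843 to 1805. The shares of all genes given above are those of the main edgeR fit. DESeq2's Wald test also called more genes than that fit. With the class of Xist level as a covariate and all 12 libraries, edgeR called the same 5 members in each comparison. The 5 calls of HD against WT became 3, 2, 3 and 3 without WT replicate 2, WT replicate 3, HD replicate 2 and HD replicate 3, with Pax2 and Wt1 among them each time. The 5 calls of cGAS-KO;HD against cGAS-KO became 9 without cGAS-KO replicate 2. With 1 library left out at a time, members called higher in HD against WT ranged from 2 to 7. In cGAS-KO;HD against cGAS-KO they ranged from 4 to 9.

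Pax2 encodes a paired-domain factor of the developing kidney, optic stalk and midbrain-hindbrain boundary (ENSMUSG00000004231, chr19:44756045-44837871 on the plus strand in GENCODE M21, GRCm38). It had 114, 96 and 56 counts in HD replicates 1, 2 and 3, against 2, 3 and 2 counts in WT. In cGAS-KO;HD it had 171, 180 and 111 counts, against 2, 12 and 2 counts in cGAS-KO. Every knock-in library lay far above every library without the allele, and the lowest of them, HD replicate 3, held 56 counts where the highest of the others, cGAS-KO replicate 2, held 12. The means were 1.25 ± 0.449 CPM in HD and 0.0365 ± 0.0129 CPM in WT, a ratio of 34.1, and 2.17 ± 0.509 CPM in cGAS-KO;HD and 0.0857 ± 0.091 CPM in cGAS-KO, a ratio of 25.3 (SD, n = 3 each). The fitted log2 changes were 5.05 ± 0.59 in HD against WT (SE, edgeR adjusted p = 7e-04) and 4.61 ± 0.53 in cGAS-KO;HD against cGAS-KO (edgeR adjusted p = 0.000441).

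Nkx6-1 is the other silent member that rose. It encodes a homeodomain factor of motor neuron progenitors and pancreatic beta cells (ENSMUSG00000035187, chr5:101658139-101664996, minus strand). Its counts were 58, 40 and 22 in HD, against 3, 2 and 2 in WT. They were 23, 21 and 40 in cGAS-KO;HD, against 0, 4 and 1 in cGAS-KO. The groups did not overlap, and the lowest knock-in library held 21 counts and the highest of the others 4. The means were 0.563 ± 0.261 CPM in HD and 0.0358 ± 0.00815 CPM in WT, and 0.396 ± 0.153 CPM in cGAS-KO;HD and 0.0269 ± 0.0329 CPM in cGAS-KO. The log2 changes were 3.91 ± 0.68 in HD against WT (edgeR adjusted p = 0.00725) and 3.78 ± 0.72 in cGAS-KO;HD against cGAS-KO (edgeR adjusted p = 0.0118). Without WT replicate 3 the first had an edgeR adjusted p of 0.0522 at a log2 change of 3.76, the highest p over the alternatives, which reached down to 1.86e-05.

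Wt1, the zinc-finger factor of kidney and gonad development, gained the most reads of the genes that were silent or low (ENSMUSG00000016458, chr2:105126529-105173616, plus strand). It had 494, 339 and 168 counts in HD, against 22, 13 and 21 counts in WT. In cGAS-KO;HD it had 538, 576 and 352 counts, against 12, 2 and 30 counts in cGAS-KO. The lowest knock-in library, HD replicate 3, was again well above the highest library without the allele, cGAS-KO replicate 3. The means were 4.70 ± 2.36 CPM in HD and 0.283 ± 0.0539 CPM in WT, a ratio of 16.6, and 6.88 ± 1.61 CPM in cGAS-KO;HD and 0.245 ± 0.242 CPM in cGAS-KO, a ratio of 28.1. The log2 changes were 4.04 ± 0.59 in HD against WT (edgeR adjusted p = 0.00377) and 4.82 ± 0.62 in cGAS-KO;HD against cGAS-KO (edgeR adjusted p = 0.0014).

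Onecut1 encodes a cut-homeodomain factor of liver, pancreas, retina and spinal cord (ENSMUSG00000043013, chr9:74861921-74891781, plus strand). Its counts were 182, 104 and 102 in HD, against 61, 10 and 15 in WT. They were 131, 188 and 166 in cGAS-KO;HD, against 12, 15 and 12 in cGAS-KO. WT replicate 1, the library with high thalamus, habenula and choroid plexus markers, held 61 of the 86 WT counts and still lay under every knock-in library. The means were 1.81 ± 0.649 CPM in HD and 0.43 ± 0.413 CPM in WT, and 2.27 ± 0.325 CPM in cGAS-KO;HD and 0.212 ± 0.0231 CPM in cGAS-KO. The log2 change in HD against WT was 2.05 ± 0.49 (edgeR adjusted p = 0.0349). It was 3.19 without WT replicate 1, and it lost the call without any 1 of 9 libraries (WT replicates 2 and 3, HD replicates 1 to 3, cGAS-KO replicate 1 and cGAS-KO;HD replicates 1 to 3), at log2 changes of 1.69 to 2.21 and edgeR adjusted p of 0.053 to 0.152. In cGAS-KO;HD against cGAS-KO the change was 3.41 ± 0.53 (edgeR adjusted p = 0.00349) and the call held without each library in turn.

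Nkx2-2 was the one member above 1 CPM that rose. It encodes a homeodomain factor that patterns the ventral neural tube and drives oligodendrocyte precursors towards differentiation (ENSMUSG00000027434, chr2:147177546-147194243, minus strand). Its counts were 982, 968 and 1283 in HD, against 707, 492 and 542 in WT. They were 1137, 968 and 1047 in cGAS-KO;HD, against 417, 609 and 533 in cGAS-KO. Its groups did not overlap in either pair. The means were 14.96 ± 1.76 CPM in HD and 8.88 ± 1.45 CPM in WT, and 14.9 ± 1.75 CPM in cGAS-KO;HD and 8.497 ± 1.53 CPM in cGAS-KO. The log2 changes were 0.75 ± 0.16 in HD against WT (edgeR adjusted p = 0.02) and 0.81 ± 0.16 in cGAS-KO;HD against cGAS-KO (edgeR adjusted p = 0.0142). The call in HD against WT was lost without WT replicate 2, WT replicate 3, HD replicate 2 or HD replicate 3, at log2 changes of 0.72, 0.66, 0.78 and 0.64 and edgeR adjusted p of 0.0662 to 0.111. The call in cGAS-KO;HD against cGAS-KO was lost without cGAS-KO replicate 1 (0.67) or cGAS-KO;HD replicate 1 (0.72), with edgeR adjusted p of 0.0611 and 0.0724.

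**Figure D1:**
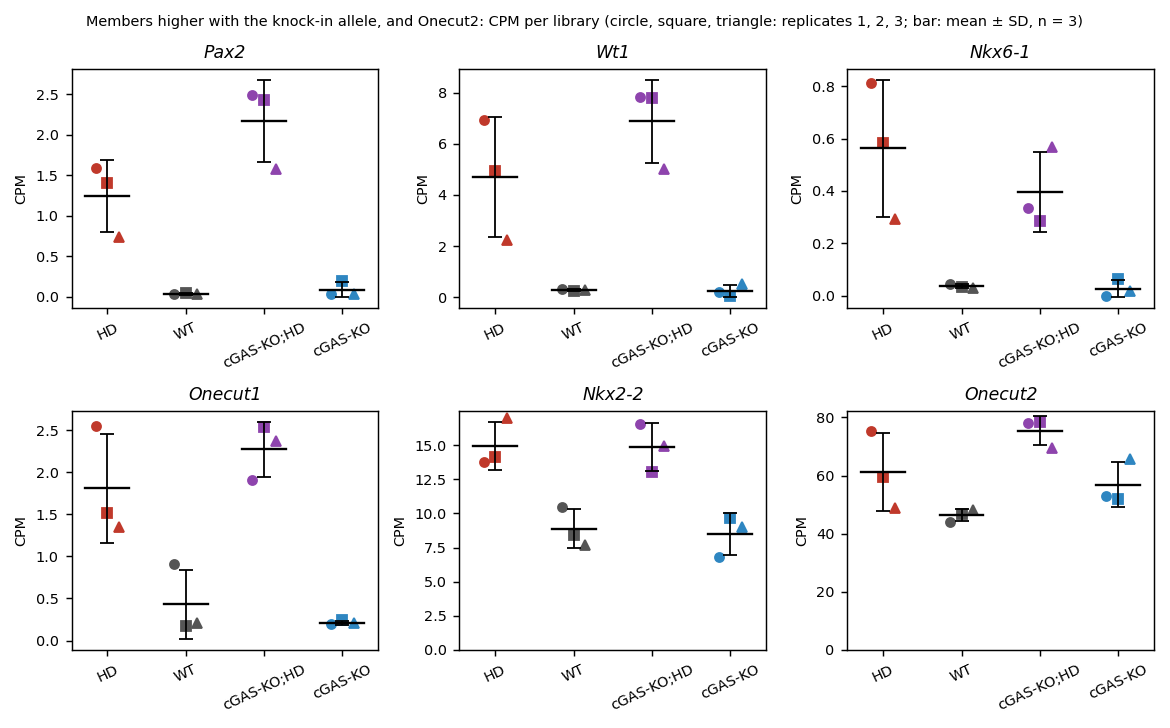
Level of the 5 members that rose and of Onecut2 in each library, in TMM-scaled CPM on a linear axis, with groups in the order HD, WT, cGAS-KO;HD and cGAS-KO. Points are libraries (circle, square and triangle for replicates 1, 2 and 3), and bars are the mean ± SD of 3 libraries. Every knock-in library of each gene lies above every library of the matching group without the allele, and HD replicate 3 is the lowest HD library in each panel but that of Nkx2-2.

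Set per kilobase of exon, the 4 silent or low genes that rose stood in HD among the rarer of the expressed members. In HD, Pax2 reached 0.231, Nkx6-1 0.179, Onecut1 0.439 and Wt1 0.758 CPM per kilobase. Onecut2 stood at 3.77, Nkx2-2 at 5.20, Dlx6 at 9.18 and Nkx6-2 at 14.5 CPM per kilobase in the same libraries. At the lower end of the expressed class were Gata2 at 0.390, Sim1 at 0.322 and Tbx3 at 0.158 CPM per kilobase, so that Wt1 and Onecut1 lay above these 3. Wt1 in cGAS-KO;HD, at 1.11 CPM per kilobase, was the only one of the 4 to exceed 1, which is about the level of Pax6 in WT (1.10 CPM per kilobase).

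The 4 genes differed between HD libraries in the same order as the projection neuron markers. HD replicate 1 was the highest and HD replicate 3 the lowest for Pax2, Wt1, Nkx6-1 and Onecut1 and also for the summed projection neuron markers (1932, 1478 and 992.6 CPM in HD replicates 1, 2 and 3). The summed markers of GABAergic interneurons (1551, 1255 and 1177 CPM) and of cholinergic interneurons (106.5, 88.77 and 80.87 CPM) had the same order. With 3 libraries an order is easily shared. All 10 projection neuron markers were tested and detected in every group. In HD against WT, 8 of 10 fell, with a median log2 change of -1.35, and in cGAS-KO;HD against cGAS-KO 9 of 10 fell, with a median of -1.43. In cGAS-KO;HD the projection neuron marker sums differed little between libraries (1573, 1638 and 1639 CPM), while Pax2 and Wt1 were lowest in replicate 3 and Nkx6-1 was highest there. The part of the projection neuron signal in the members' counts was not tested.

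Markers of other cells and regions were read beside them. Those of cortical projection neurons were lower with the allele, with a median log2 change of -2.13 in HD against WT (6 of 9 lower at an unadjusted p under 0.05, none called by edgeR) and -1.27 in cGAS-KO;HD against cGAS-KO (0 of 9 at an unadjusted p under 0.05). Their sum was 134.7 to 209.4 CPM in HD and 158.6 to 712.6 CPM in WT, and 190.5 to 317.6 CPM in cGAS-KO;HD and 199.8 to 1059 CPM in cGAS-KO. Of the 11 markers of meninges and fibroblasts, cells that express T-box genes, none passed edgeR's test in either knock-in comparison (2 lower in HD against WT and 1 higher in cGAS-KO;HD against cGAS-KO at an unadjusted p under 0.05). Their sum was 34.48 to 44.45 CPM in HD and 29.63 to 46.64 CPM in WT, and 33.25 to 53.41 CPM in cGAS-KO;HD and 24.38 to 35.73 CPM in cGAS-KO. Those of midbrain and hindbrain, where Pax2 is used in development, summed to 10.58 to 15.49 CPM in HD and 8.951 to 12.34 CPM in WT, and to 10.04 to 12.21 CPM in cGAS-KO;HD and 6.58 to 11.22 CPM in cGAS-KO. Of the 5 of them that were tested none passed, and 3 in HD against WT and 1 in cGAS-KO;HD against cGAS-KO were higher at an unadjusted p under 0.05. The part of these tissues in the members' counts was not tested. Beside Nkx2-2, the 12 markers of the oligodendrocyte lineage summed to 7576 to 8198 CPM in HD and 8029 to 9519 CPM in WT, and to 7251 to 7829 CPM in cGAS-KO;HD and 7039 to 8742 CPM in cGAS-KO. By edgeR 1 rose and 1 fell in HD against WT and 2 rose in cGAS-KO;HD against cGAS-KO, with 5 and 6 higher and 2 and 2 lower at an unadjusted p under 0.05 and median log2 changes of 0.21 and 0.28. Among them Enpp6, an enzyme of newly formed oligodendrocytes, rose by a log2 change of 1.23 ± 0.10 in HD against WT and 1.13 ± 0.10 in cGAS-KO;HD against cGAS-KO (edgeR adjusted p = 2.7e-05 and 4.73e-05), and Cldn11, a myelin tight junction gene, fell by 0.49 in HD against WT (edgeR adjusted p = 0.0139). Sox10, a factor of the whole lineage, rose by 0.42 in cGAS-KO;HD against cGAS-KO (edgeR adjusted p = 0.0039) and was at 0.24 in HD against WT (edgeR adjusted p = 0.072). The part of oligodendrocytes in the Nkx2-2 result was not tested.

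The other 25 silent members stayed at a few reads. Together they held 276 counts in the 3 HD libraries and 146 in the 3 WT libraries, and 216 in cGAS-KO;HD and 105 in cGAS-KO. Those with at least 1 read in a group numbered 20 in HD and 18 in WT, and 21 in cGAS-KO;HD and 17 in cGAS-KO. The 25 genes held 68, 97 and 111 counts in HD replicates 1, 2 and 3 and 69, 31 and 46 in WT, where the groups overlapped. They held 87, 83 and 46 counts in cGAS-KO;HD and 22, 38 and 45 in cGAS-KO, where the lowest and highest differed by 1 count. A count of 0 allows up to 3 counts, so that a gain of a few reads in single genes was not detectable at this depth, and this limit covers counting error only.

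Of these 25, 8 had at least 10 counts in a knock-in group and at least 3 times the sum of the matching group without the allele, in HD, in cGAS-KO;HD or in both. With Pax2 and Nkx6-1, that made 10 of the 18 silent members with 10 or more counts over the 12 libraries (55.6%), beside 23.3% of the 1531 silent protein-coding genes with as many counts. The reverse rule, 10 counts without the allele and 3 times the knock-in sum, was met by 1 of the 18 members, Nkx1-2, beside 8.95% of those genes. Nkx1-2 had 4, 1 and 1 counts in HD against 0, 5 and 5 in WT, and 0 in each cGAS-KO;HD library against 1, 7 and 4 in cGAS-KO. The class was chosen for a low level without the allele, so the rules are not symmetric. Some genes also reached 10 counts over the 12 libraries only through their knock-in reads, such as Nkx1-1 with 0 counts without the allele and 14 with it. The shares of 55.6% and 23.3% are thus of genes selected in part by the reads that the rule counts, and do not measure gain among silent genes at large. None of the 8 entered the main test. In the fit without a filter their edgeR adjusted p ranged from 0.21 to 1 in HD against WT and from 0.163 to 0.736 in cGAS-KO;HD against cGAS-KO, while Pax2 and Nkx6-1 had edgeR adjusted p of 1.12e-05 and 0.00155 and of 7.9e-06 and 0.00338.

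Gata3, a factor of T cells and of midbrain GABAergic neurons, had 2, 6 and 22 counts in HD against 2, 1 and 2 in WT, and 8, 4 and 1 in cGAS-KO;HD against 1, 1 and 1 in cGAS-KO. Gata6, a factor of heart and gut, had 7, 5 and 5 counts in HD against 0, 1 and 7 in WT, and 15, 8 and 7 in cGAS-KO;HD against 0, 4 and 0 in cGAS-KO. Only the cGAS-KO;HD and cGAS-KO libraries of Gata6 were separate. Irx4, a ventricular heart factor, had 2, 9 and 16 counts in HD against 2, 0 and 0 in WT, but 1, 2 and 1 in cGAS-KO;HD against 1, 1 and 6 in cGAS-KO. Pax3, a factor of dorsal neural tube, neural crest and muscle, had 12, 6 and 5 counts in HD against 1, 0 and 1 in WT, but 1, 1 and 0 in cGAS-KO;HD against 0, 6 and 0 in cGAS-KO. Irx4 and Pax3 thus met the rule in HD and not in cGAS-KO;HD, and the difference between the 2 knock-in effects had an edgeR adjusted p of 1 in the fit without a filter. Tbx5, a factor of heart and forelimb, had 2, 17 and 0 counts in HD against 0, 0 and 1 in WT, and 2, 1 and 6 in cGAS-KO;HD against 0 in each cGAS-KO library.

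The remaining 3, like Gata6, met the rule in cGAS-KO;HD and not in HD, on 12 to 15 counts over the cGAS-KO;HD libraries. Tbx20, a heart factor, had 1, 0 and 3 counts in HD against 0, 2 and 1 in WT, and 7, 4 and 4 in cGAS-KO;HD against 0 in each cGAS-KO library. Nkx1-1 had 1, 0 and 1 counts in HD and 8, 4 and 0 in cGAS-KO;HD, against 0 in all 6 libraries without the allele. Nkx2-3, a factor of gut and spleen, had 21, 7 and 2 counts in HD against 0, 5 and 10 in WT, and 5, 9 and 1 in cGAS-KO;HD against 0, 1 and 1 in cGAS-KO. Several of these sums came mostly from 1 library, and which library that was differed from gene to gene. At the other end, the heart factor Nkx2-6 had 0 counts in all 12 libraries, which allows up to 3 counts in each. Gata4 and Gata5 had 1 count each over all 12. Pax5, the B-cell factor and the third silent member tested, had 7, 17 and 10 counts in HD against 7, 2 and 3 in WT, and 22, 18 and 10 in cGAS-KO;HD against 2, 1 and 18 in cGAS-KO. Its log2 changes were 1.36 ± 0.89 and 1.00 ± 0.81 (edgeR adjusted p = 0.453 and 0.588).

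**Figure D2:**
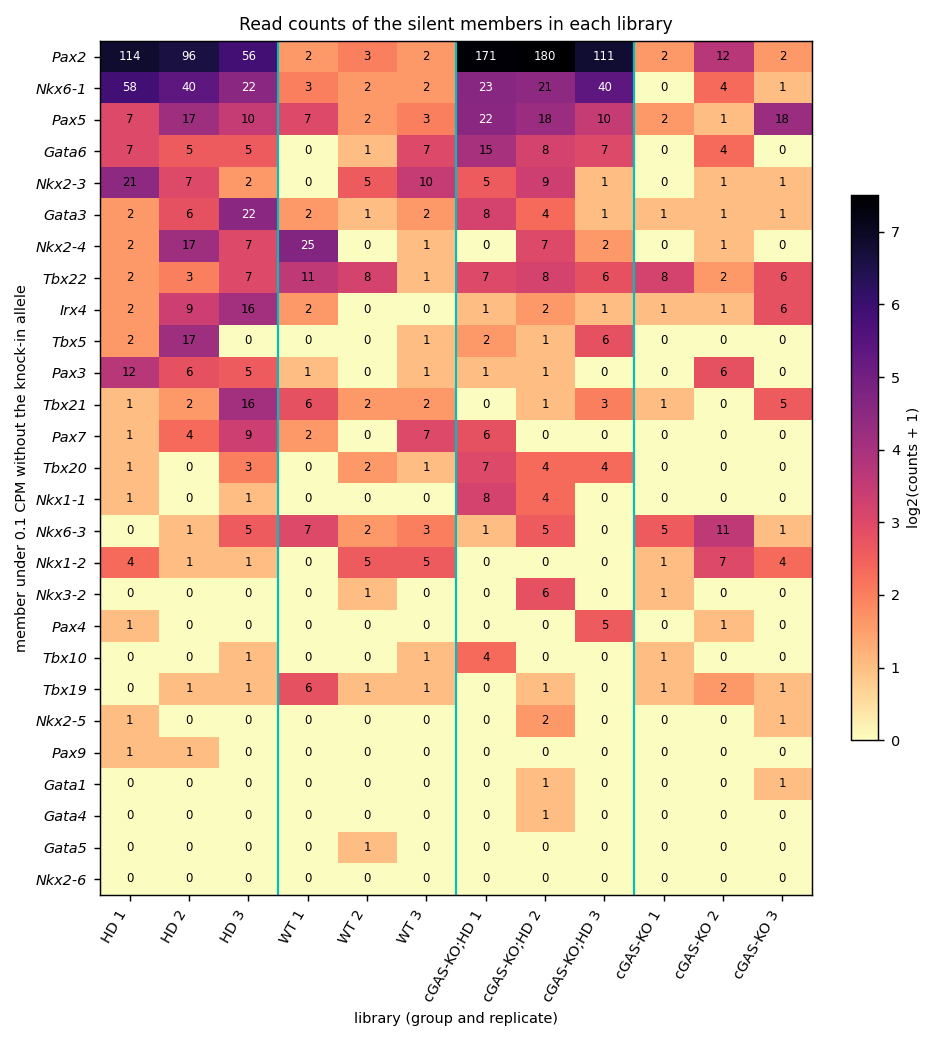
Read counts of the 27 members under 0.1 CPM without the knock-in allele, 1 column per library and 1 row per gene, with the count printed in each cell and the shade on a scale of log2(counts + 1). Genes run in falling order of the counts summed over the 6 knock-in libraries. Pax2 and Nkx6-1 fill the 6 knock-in columns with 21 to 180 counts, while the other 25 genes scatter at 0 to 25 counts in libraries of every group.

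The low class held 15 genes, and besides Wt1 and Onecut1 edgeR called none in either comparison with all 12 libraries (13 of 15 not called in each). DESeq2's Wald test also called Irx5 in both comparisons and Irx6, Nkx2-9 and Tbx1 in cGAS-KO;HD against cGAS-KO, and limma-voom called Irx5 in HD against WT. The median log2 change of the class was 0.36 in HD against WT and 0.57 in cGAS-KO;HD against cGAS-KO, beside 0.01 and 0.00 over all genes tested. The changes ran from -1.32 (Dlx3) to 4.04 (Wt1) in HD against WT and from -1.39 (Tbx1) to 4.82 (Wt1) in cGAS-KO;HD against cGAS-KO. Nkx2-9, a relative of Nkx2-2 in the ventral neural tube, averaged 1.79 ± 0.295 CPM in HD and 0.885 ± 0.186 CPM in WT, and 1.89 ± 0.459 CPM in cGAS-KO;HD and 0.84 ± 0.553 CPM in cGAS-KO. Its log2 changes were 1.01 ± 0.38 and 1.17 ± 0.38 (edgeR adjusted p = 0.163 and 0.115), and its HD libraries lay above all WT libraries while cGAS-KO;HD and cGAS-KO overlapped. Tbx1, the T-box factor of the pharyngeal arches, had changes below 0 that edgeR did not call at the settings used here. It averaged 0.313 ± 0.148 CPM in HD and 0.667 ± 0.131 CPM in WT, and 0.241 ± 0.0849 CPM in cGAS-KO;HD and 0.631 ± 0.0767 CPM in cGAS-KO, with no overlap in either pair (log2 changes of -1.08 ± 0.38 and -1.39 ± 0.39, edgeR adjusted p = 0.138 and 0.0711). The second was called by DESeq2's Wald test, and by edgeR without HD replicate 1 or without both WT replicate 1 and cGAS-KO replicate 3.

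The Iroquois genes, homeodomain factors that sit in clusters and are used in the thalamus and midbrain, had 5 tested members (Irx1, Irx2, Irx3, Irx5 and Irx6). All 5 had a log2 change above 0 in both comparisons, and edgeR called none with all 12 libraries. DESeq2's Wald test called Irx3 and Irx5 in both comparisons and Irx6 in cGAS-KO;HD against cGAS-KO. Irx5 was at 1.48, 2.05 and 3.06 CPM in HD replicates 1, 2 and 3 against 0.995, 0.377 and 0.37 CPM in WT, and at 1.79, 2.02 and 1.62 CPM in cGAS-KO;HD against 0.39, 1.11 and 0.17 CPM in cGAS-KO. Irx3, its neighbour in the same cluster, was at 1.93, 3.04 and 4.14 CPM in HD against 1.59, 1.199 and 0.84 CPM in WT, and at 1.72, 2.27 and 1.62 CPM in cGAS-KO;HD against 0.763, 1.29 and 0.322 CPM in cGAS-KO. Neither gene's groups overlapped. The log2 changes of Irx5 were 1.91 ± 0.55 and 1.69 ± 0.55 (edgeR adjusted p = 0.0781 and 0.121) and those of Irx3 1.33 ± 0.41 and 1.24 ± 0.42 (edgeR adjusted p = 0.0944 and 0.134). Irx2 was at 2.31, 5.39 and 7.62 CPM in HD against 2.35, 0.788 and 0.47 CPM in WT, and overlapped in both pairs.

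In 3 of the 4 groups Irx1, Irx2, Irx3 and Irx5 had the same highest library as the markers of thalamus and habenula. Those markers summed to 542.5, 787.7 and 1097 CPM in HD replicates 1, 2 and 3 and 715.3, 397.5 and 257.6 CPM in WT, and to 562.7, 370.7 and 484 CPM in cGAS-KO;HD and 338.4, 732 and 193.4 CPM in cGAS-KO. HD replicate 3, WT replicate 1 and cGAS-KO replicate 2 were the highest of their groups for the marker sum and for Irx1, Irx2, Irx3 and Irx5. In cGAS-KO;HD the marker sum was highest in replicate 1, as was Irx2, while Irx1 was highest in replicate 3 and Irx3 and Irx5 in replicate 2. Irx6 differed from them in WT, where replicate 1 was its lowest library (0.282 CPM, against 0.582 and 0.313 CPM). None of the 9 markers passed edgeR's test in either comparison, 1 in HD against WT was higher at an unadjusted p under 0.05, and their median log2 changes were 0.91 and 0.47. The part of this tissue in the Iroquois values was not tested. With WT replicate 1 and also cGAS-KO replicate 3 left out, edgeR called Irx2, Irx3 and Irx5 higher in HD against WT. Only knock-in libraries had Xist above Ddx3y in that fit, and the part of this class was not tested there. In the same comparison edgeR called Irx3 and Irx5 without cGAS-KO replicate 3 alone. It called Irx5 without WT replicate 1 alone or cGAS-KO replicate 2 alone. In cGAS-KO;HD against cGAS-KO it called Irx3 and Irx5 without cGAS-KO replicate 2.

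**Figure D3:**
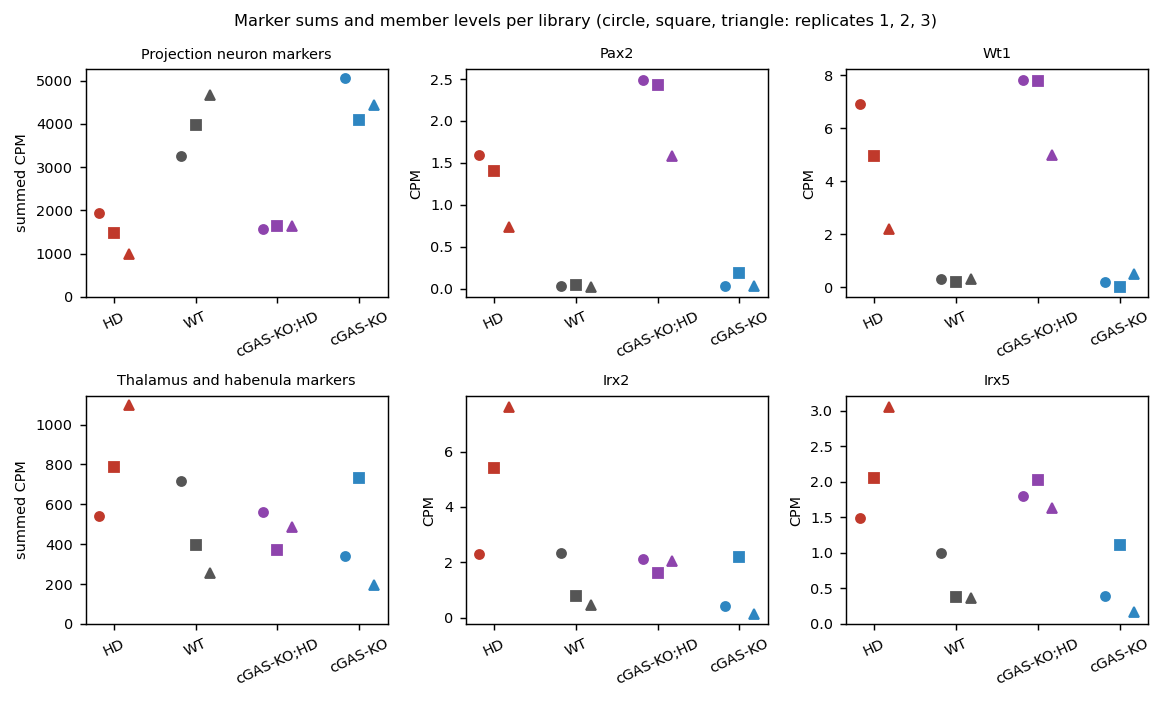
Summed level of 10 projection neuron markers beside Pax2 and Wt1 (top) and of 9 thalamus and habenula markers beside Irx2 and Irx5 (bottom), in TMM-scaled CPM per library on linear axes, with groups in the order HD, WT, cGAS-KO;HD and cGAS-KO and symbols for replicates 1, 2 and 3. HD replicate 1 is the highest HD library in the top row and HD replicate 3 the highest in the bottom row.

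Of the 18 expressed members edgeR called Nkx2-2 alone in each knock-in comparison. At an unadjusted p under 0.05, 4 were higher and 3 lower in HD against WT and 5 were higher and 2 lower in cGAS-KO;HD against cGAS-KO, and the class medians were 0.10 and 0.37 on the log2 scale. The 8 most abundant of them were Onecut2, Dlx1, Dlx6, Nkx6-2, Dlx5, Pax6, Dlx2 and Nkx2-2. A change of the size seen in Pax2, Wt1, Nkx6-1 or Onecut1 lay outside the 95% intervals of each of the other 7, whose bounds stayed between -1.12 (Dlx5) and 0.70 (Onecut2), both on the log2 scale.

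Onecut2, a paralogue of Onecut1 that is active in adult neurons, had 5389, 4066 and 3678 counts in HD, against 2969, 2739 and 3394 in WT, and 5351, 5813 and 4885 in cGAS-KO;HD, against 3267, 3258 and 3883 in cGAS-KO. Its means were 61.2 ± 13.5 CPM in HD and 46.4 ± 2.14 CPM in WT, and 75.3 ± 4.99 CPM in cGAS-KO;HD and 56.9 ± 7.78 CPM in cGAS-KO. The libraries did not overlap in either pair, HD replicate 3 at 48.7 CPM lying just above WT replicate 3 at 48.3 CPM. The log2 changes were 0.40 ± 0.14 (95% interval 0.10 to 0.70) and 0.41 ± 0.14 (0.11 to 0.70), and neither was called (edgeR adjusted p = 0.132 and 0.131). Onecut3, the third of the family, averaged 1.18 ± 0.288 CPM in HD and 1.12 ± 0.624 CPM in WT, and 1.71 ± 0.448 CPM in cGAS-KO;HD and 0.936 ± 0.339 CPM in cGAS-KO (edgeR adjusted p = 0.951 and 0.312).

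Pax6, a factor of the eye and forebrain, was at 14.8, 15.1 and 15.7 CPM in HD against 13.1, 12.8 and 12.5 CPM in WT, and at 16.2, 16.9 and 16.4 CPM in cGAS-KO;HD against 11.1, 11.1 and 16.01 CPM in cGAS-KO. Its libraries were separate in both pairs, and its log2 changes of 0.25 ± 0.13 and 0.37 ± 0.13 were not called (edgeR adjusted p = 0.317 and 0.129). The second was 0.56 without cGAS-KO replicate 3, with an edgeR adjusted p of 0.00264, in a range of 0.00149 to 0.346 over the alternatives. Nkx6-2, the oligodendrocyte relative of Nkx6-1, was at 24.1, 31.3 and 27.4 CPM in HD against 29.4, 22.3 and 20.6 CPM in WT, and at 20.9, 24.3 and 26.0 CPM in cGAS-KO;HD against 22.5, 27.8 and 14.3 CPM in cGAS-KO. Its groups overlapped in both pairs (log2 changes of 0.19 ± 0.21 and 0.14 ± 0.21, edgeR adjusted p = 0.687 and 0.807). Its exons overlap those of Inpp5a, a gene of 3660 to 5421 counts per library on the other strand, so that reads of the pair are separable only if strand was used in counting.

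No Dlx gene was called by edgeR at the settings used here. Of the 6, Dlx4 alone had a log2 change above 0 in both comparisons. Dlx6 had 27.9, 22.1 and 15.4 CPM in HD against 30.6, 35.4 and 34.7 CPM in WT, and 28.2, 27.2 and 24.6 CPM in cGAS-KO;HD against 40.5, 35.5 and 38.1 CPM in cGAS-KO. It was lower without overlap in both pairs, with log2 changes of -0.62 ± 0.16 and -0.51 ± 0.16 (edgeR adjusted p = 0.0513 and 0.105). DESeq2's Wald test called it lower in both comparisons and limma-voom in HD against WT, as did edgeR under other settings, among them without HD replicate 1 in both comparisons. Dlx5, its neighbour, averaged 10.3 ± 3.56 CPM in HD and 15.4 ± 1.08 CPM in WT, and 16.01 ± 2.40 CPM in cGAS-KO;HD and 19.2 ± 5.92 CPM in cGAS-KO (log2 changes of -0.57 ± 0.25 and -0.26 ± 0.25, edgeR adjusted p = 0.241 and 0.661).

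The linked pair Dlx1 and Dlx2 moved less. Dlx1 averaged 33.0 ± 4.36 CPM in HD and 38.2 ± 4.21 CPM in WT, and 39.7 ± 6.14 CPM in cGAS-KO;HD and 38.1 ± 2.77 CPM in cGAS-KO, and its log2 changes of -0.21 ± 0.13 and 0.06 ± 0.13 were not called (edgeR adjusted p = 0.401 and 0.872). Dlx2 averaged 7.25 ± 1.78 CPM in HD and 9.62 ± 0.559 CPM in WT, and 10.7 ± 1.66 CPM in cGAS-KO;HD and 9.92 ± 1.28 CPM in cGAS-KO (log2 changes of -0.41 ± 0.17 and 0.11 ± 0.17, edgeR adjusted p = 0.221 and 0.811). For all 4 genes HD replicate 1 was the highest HD library and HD replicate 3 the lowest. The same held for the summed markers of projection neurons and of GABAergic and cholinergic interneurons. Among 12 markers of GABAergic interneurons, Lhx6, Nos1 and Pthlh fell in HD against WT (log2 changes of -0.50, -0.56 and -0.96, edgeR adjusted p = 0.0343, 0.0055 and 0.0474) and Pthlh in cGAS-KO;HD against cGAS-KO (-0.98, edgeR adjusted p = 0.0427). The part of these neurons in the Dlx values was not tested. Nkx2-1, the interneuron factor, averaged 7.50 ± 1.46 CPM in HD and 7.81 ± 1.53 CPM in WT, and 9.13 ± 1.47 CPM in cGAS-KO;HD and 8.35 ± 1.02 CPM in cGAS-KO (edgeR adjusted p = 0.909 and 0.792).

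Sim1, a factor of hypothalamic neurons, averaged 2.77 ± 0.294 CPM in HD and 2.01 ± 1.49 CPM in WT, and 3.07 ± 0.0205 CPM in cGAS-KO;HD and 1.57 ± 1.23 CPM in cGAS-KO. Its spread lay in the libraries without the allele, where WT replicate 1 reached 3.68 CPM and cGAS-KO replicate 3 only 0.153 CPM, and the changes were not called (edgeR adjusted p = 0.786 and 0.537). Gata2, the one expressed Gata gene, averaged 2.11 ± 0.322 CPM in HD and 1.92 ± 0.224 CPM in WT, and 2.09 ± 0.349 CPM in cGAS-KO;HD and 1.29 ± 0.452 CPM in cGAS-KO (edgeR adjusted p = 0.83 and 0.157). Of the 7 tested T-box genes, Tbx6 alone had a log2 change above 0 in both comparisons, and Tbx3 was lower without overlap in cGAS-KO;HD against cGAS-KO (-0.88 ± 0.31, edgeR adjusted p = 0.146).

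Beyond the calls, the members were counted by whether their libraries overlapped. All 3 HD libraries lay above all 3 WT libraries for 10 of 36 tested members and below them for 5, where 14.6% and 13.1% of all tested genes did so. All 3 cGAS-KO;HD libraries lay above all 3 cGAS-KO libraries for 11 members and below them for 3, where 10.8% and 10.7% of all genes did so. In both pairs at once 9 members were higher without overlap, beside 4.8% of all genes: Pax2, Pax6, Nkx6-1, Nkx2-2, Onecut1, Onecut2, Irx3, Irx5 and Wt1. A log2 change above 0 in both comparisons was found for 23 of 36 members and 36.7% of all genes. It was found for all tested Irx (5 of 5), Pax (5 of 5), Onecut (3 of 3) and Sim genes (2 of 2), 4 of 6 Nkx genes, 1 of 6 Dlx genes and 1 of 7 Tbx genes. Pax2, Nkx6-1 and Pax5 were among the 36 only through their knock-in reads, so these totals are no fair measure beside all genes. Without overlap, 4 of 15 low members were higher and 2 lower in HD against WT, and 4 and 1 in cGAS-KO;HD against cGAS-KO. The 18 expressed members gave 4 higher and 3 lower in the first pair, and 5 and 2 in the second.

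**Figure D4:**
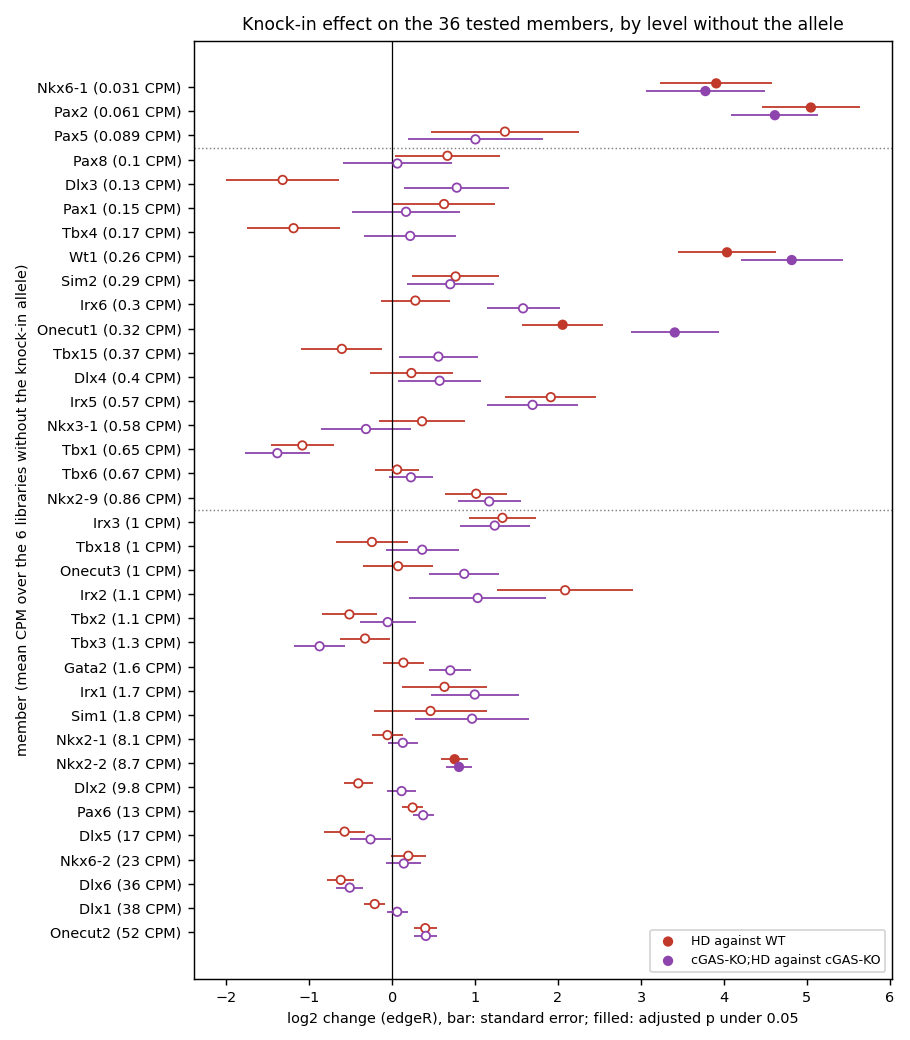
Log2 change of the 36 tested members in HD against WT (red) and cGAS-KO;HD against cGAS-KO (purple), with standard errors from edgeR and filled points for an adjusted p under 0.05. Genes run from the lowest level without the knock-in allele at the top (mean CPM over 6 libraries in brackets) to the highest at the bottom, and dotted lines mark 0.1 and 1 CPM. The filled points are Nkx6-1, Pax2, Wt1, Onecut1 and Nkx2-2 in both comparisons, and the points close in on 0 towards the abundant genes.

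Loss of cGAS moved none of these genes past the threshold. In cGAS-KO;HD against HD edgeR called 0 of 36 members, beside 1 of 21309 genes (0.00469%), and 4 members were higher and 1 lower at an unadjusted p under 0.05. DESeq2 and limma-voom called no member either. Without overlap, Pax6 and Sim1 were higher and Irx2 and Tbx3 lower in cGAS-KO;HD than in HD, beside 8.76% of all genes higher and 8.33% lower. Among the 5 genes that rose with the allele, the log2 change in cGAS-KO;HD against HD was 0.80 ± 0.40 for Pax2 (95% interval -0.07 to 1.67), 0.55 ± 0.48 for Wt1 (-0.50 to 1.60), -0.50 ± 0.52 for Nkx6-1 (-1.62 to 0.62), 0.33 ± 0.44 for Onecut1 (-0.63 to 1.29) and -0.01 ± 0.16 for Nkx2-2 (-0.35 to 0.33). The intervals leave room for changes of more than 1 on the log2 scale in the first 4. Of the 8 most abundant members, Dlx2 had the smallest edgeR p, 0.00629 unadjusted and 0.757 adjusted, at a log2 change of 0.57 ± 0.17. Its CPM was 12.4, 10.7 and 9.08 in cGAS-KO;HD against 9.10, 7.09 and 5.54 in HD.

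In cGAS-KO against WT edgeR called 0 of 36 members and 0 of 21309 genes, with 913 genes and 1 member (lower) at an unadjusted p under 0.05. DESeq2 called 6 genes but no member, and limma-voom called no member. Dlx6 and Onecut2 were higher without overlap in cGAS-KO than in WT and no member was lower, beside 4.25% and 4.53% of all genes. The silent genes stayed near 0 in both groups: Pax2 had 2, 12 and 2 counts in cGAS-KO against 2, 3 and 2 in WT, and Nkx6-1 had 0, 4 and 1 counts against 3, 2 and 2. No member passed the test of a difference between the allele's effects in mice lacking cGAS and in mice with it (0 of 36 called by edgeR, beside 1 gene or 0.00469%, and 0 by DESeq2 and limma-voom), and 1 member, Dlx3, had an unadjusted p under 0.05 (2.10 ± 0.93). For the 5 genes the difference of the effects was -0.43 ± 0.82 for Pax2, 0.78 ± 0.84 for Wt1, -0.13 ± 1.33 for Nkx6-1, 1.35 ± 0.71 for Onecut1 and 0.05 ± 0.22 for Nkx2-2, on the log2 scale. Each 95% interval held 0, and that of Onecut1 ran from -0.19 to 2.89.

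The neighbourhood of the 5 genes was read from GENCODE M21 within 50 kb. Near Onecut1, 2 noncoding genes had more reads in the knock-in groups. Gm16551, 1787 bases away on the same strand, had 87, 59 and 38 counts in HD against 23, 1 and 1 in WT, and 57, 91 and 100 counts in cGAS-KO;HD against 2, 6 and 2 in cGAS-KO. WT replicate 1 was the highest library without the allele for Gm16551 as for Onecut1. Its log2 changes were 2.75 ± 0.76 (edgeR adjusted p = 0.0667) and 4.37 ± 0.86 (edgeR adjusted p = 0.0144). Gm28182, 6536 bases away on the opposite strand, had 6, 6 and 9 counts in HD against 0, 1 and 0 in WT, and 6, 6 and 7 counts in cGAS-KO;HD against 0 in each cGAS-KO library. It was too rare to be tested. Nkx2-2os, antisense to Nkx2-2 and overlapping its exons, was not called (0.17 ± 0.25 and 0.41 ± 0.25, edgeR adjusted p = 0.779 and 0.436). Wt1os, antisense to Wt1, had 0 counts in all 12 libraries, and the genes within Pax2 had at most 1 count in any library.

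RefSeq promoters (GRCm38.p6) were at hand for 38 of the 60 members, 45 promoters in all. The 250 bases before each start were read for CG dinucleotides, the sites of DNA methylation. These are dense in many promoters, whether bound by Polycomb or not, and no Polycomb binding was measured here. A promoter was counted as CpG-rich at 50% or more G and C and a ratio of observed to chance CG of 0.6 or more. This held for 57.78% of the members' promoters and 31.02% of all 32851 promoters in the same table. It held for 4 of 6 promoters of the genes that rose (66.67%) and for 56.41% of those of members not called, and for 58.33% of promoters of silent and 69.23% of expressed members. The 6 promoters belonged to 4 of the 5 genes that rose, 3 of them to Pax2, and no promoter of Wt1 was at hand. With 6 promoters behind the first share, no difference between members that rose and members not called could be read from it. The sequences of 4 genes that rose follow, 5′ to 3′ on the gene's strand, with each CG in capitals. For Pax2 the start nearest the annotated 5′ end is shown of the 3 in the table.
Pax2 (chr19:44755502-44755751, plus strand, 20 CG): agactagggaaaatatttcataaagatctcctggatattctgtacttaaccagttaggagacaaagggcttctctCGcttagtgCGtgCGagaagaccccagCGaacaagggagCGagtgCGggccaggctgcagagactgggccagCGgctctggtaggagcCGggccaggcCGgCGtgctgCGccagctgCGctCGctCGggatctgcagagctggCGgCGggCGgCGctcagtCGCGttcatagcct
Nkx6-1 (chr5:101664712-101664961, minus strand, 30 CG): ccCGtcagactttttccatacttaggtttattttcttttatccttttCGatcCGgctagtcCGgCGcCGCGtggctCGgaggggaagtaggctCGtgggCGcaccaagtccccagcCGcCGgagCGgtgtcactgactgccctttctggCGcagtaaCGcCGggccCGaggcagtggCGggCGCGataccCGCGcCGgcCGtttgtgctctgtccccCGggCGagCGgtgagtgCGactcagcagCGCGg
Onecut1 (chr9:74861671-74861920, plus strand, 31 CG): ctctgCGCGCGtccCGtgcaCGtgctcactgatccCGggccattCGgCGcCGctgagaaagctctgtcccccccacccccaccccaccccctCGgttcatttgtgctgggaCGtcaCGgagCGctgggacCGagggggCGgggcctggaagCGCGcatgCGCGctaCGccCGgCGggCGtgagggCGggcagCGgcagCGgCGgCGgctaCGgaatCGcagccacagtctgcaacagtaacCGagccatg
Nkx2-2 (chr2:147186403-147186652, minus strand, 8 CG): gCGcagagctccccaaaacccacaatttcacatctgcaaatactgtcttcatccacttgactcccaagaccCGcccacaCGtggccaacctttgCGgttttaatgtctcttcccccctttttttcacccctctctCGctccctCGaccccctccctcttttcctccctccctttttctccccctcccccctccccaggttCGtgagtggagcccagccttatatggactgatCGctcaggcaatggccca
The first 3, of genes under 1 CPM without the allele, held 20 to 31 CG and met both limits. The Nkx2-2 window held 8 CG and a ratio of 0.539 and did not. Of the Pax2 windows not shown, that at chr19:44756656-44756905 held 25 CG and met both limits. That at chr19:44746351-44746600 held 5 CG and a ratio of 0.391 and did not.

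Other embryonic regulators outside these families were read as a list of 112 genes of the Lhx, Fox, Msx, Zic, Sox and related families, chosen with earlier results of these data known. Of 78 tested, 5 rose in HD against WT and 73 did not pass, beside 1.43% of all genes called higher. The same counts held in cGAS-KO;HD against cGAS-KO, beside 1.44%, and the median log2 changes were 0.27 and 0.46. Another 33 in the count files were not tested. Some of the 78, such as Barx1 and Vax2, were tested only through their knock-in reads, so these shares are not free of that selection. The 5 were Lmx1b, a limb and dopamine neuron factor (5.37 ± 0.42 and 6.32 ± 0.46, edgeR adjusted p = 2.73e-05 and 1.69e-05), the stomach and jaw factor Barx1, the retinal factor Vax2, the mesoderm factor Twist1 and the limb and skull factor Alx4. Lmx1b had 492, 399 and 332 counts in HD against 18, 2 and 7 in WT, and 474, 493 and 456 counts in cGAS-KO;HD against 6, 7 and 2 in cGAS-KO. Barx1 had 58, 81 and 43 counts in HD against 1, 0 and 0 in WT, and 57, 123 and 59 in cGAS-KO;HD against 0 in each cGAS-KO library. These libraries divided by the allele as Pax2 did, with no overlap. A list of 34 Polycomb genes, all tested, held subunits and also Kdm6a, Kdm6b, Bap1 and Asxl1, which act in removing the Polycomb marks. By edgeR 2 of the 34 rose in each comparison, beside 1.43% and 1.44% of all genes. Cbx8, a chromodomain protein of Polycomb repressive complex 1, was among them in both (by 0.84 ± 0.17 and 0.78 ± 0.17 on the log2 scale). The 1 that fell was Epop in HD against WT (-1.98 ± 0.36, edgeR adjusted p = 0.0116), beside 2.67% of all genes, and 0 fell in cGAS-KO;HD against cGAS-KO. The summed level of the 34 was 1837 to 1923 CPM in HD and 1778 to 1968 CPM in WT.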

How the data were processed

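Poly(A) RNA libraries were made with a directional kit from the striatum of 12 mice, per the labels' protocols. Raw read counts per Ensembl gene, whole and not normalized, are what the authors deposited. The aligner, genome build, annotation, counting rule and use of strand were not given in the sources used here. Groups were read from the sample titles. Symbols, biotypes and coordinates came from GENCODE M21 (GRCm38), which named 55227 of 55487 genes (99.5%), and the unnamed genes held no more than 0.0062% of any library. Totals were 59195327 to 72765623 counts per library.

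Genes were kept by edgeR's filterByExpr (minimum count 10, minimum total 15), leaving 21309, scaled by TMM and fitted with 1 mean per group over all 12 libraries by the robust quasi-likelihood model (8 residual degrees of freedom, biological coefficient of variation 18.1%). P-values were adjusted by Benjamini-Hochberg over all genes tested, in 5 comparisons. CPM are TMM-scaled, and CPM per kilobase divides by the union of exons. Given in full were members called in any comparison, silent members with 10 or more counts in a knock-in group and 3 times the matching sum, and the 8 expressed members with the highest mean. Others were described after their values were seen. The members and lists were chosen with earlier results of these data known. Alternatives were DESeq2 size factors, limma-voom, DESeq2's Wald test, no filter, a minimum of 1 CPM in 3 libraries, the compared groups alone, a replicate block, a covariate for the class of Xist level, and leaving out libraries. The fits were tested on simulated data. Some genes of the lists are not reported here. The software was DESeq2 1.42.0, edgeR 4.0.16 and limma 3.58.1 under R 4.3.3.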

Additional observations from a re-analysis of the deposited data

Results flagged for a closer look

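Gm28182, a noncoding gene 6536 bases from Onecut1 on the opposite strand that no comparison tested, held reads in the knock-in groups above the level without the allele. It had 21 counts over the 3 HD libraries, against 1 count over the 3 WT libraries, and 19 counts over the 3 cGAS-KO;HD libraries, against 0 in cGAS-KO, where a count of 0 allows up to 3. All 6 knock-in libraries held 6 to 9 counts each.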

How the results depend on the processing

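Pax2 and Wt1 were called higher in both knock-in comparisons under every alternative run, including each library left out in turn, and Onecut1 in cGAS-KO;HD against cGAS-KO likewise. In HD against WT the genes called (873) became 1782 with DESeq2's Wald test, 507 with the replicate block and 3589 with WT replicate 1 and also cGAS-KO replicate 3 left out, and 247 to 1931 with 1 library left out. The 5 members called higher became 10 without those 2 libraries and 2 to 7 with 1 library left out. Without those 2 libraries, Xist lay above Ddx3y in knock-in libraries alone. The members called lower became 1 (Dlx6) with DESeq2 size factors, the Wald test, limma-voom, the filter of 1 CPM in 3 libraries and without those 2 libraries, and 0 to 1 with 1 left out. In cGAS-KO;HD against cGAS-KO the 843 genes became 1661 (Wald test), 460 (compared groups alone) and 1805 (without both libraries), and 321 to 1132 with 1 left out. The 5 members higher became 9, 3 and 8 under the same settings and 4 to 9 with 1 left out, and the members lower 2, 1 and 1, and 0 to 2 with 1 left out. Genes called in cGAS-KO;HD against HD became 7 with the Wald test. Those in cGAS-KO against WT became 6 with the Wald test and 38 without both libraries, and those of the interaction 3 with the Wald test, 0 with limma-voom, 105 without both libraries and 0 to 1 with 1 left out. No member was among them. The interaction could not be fitted on the compared groups alone.

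Of the log2 changes near 0, 4 changed sign, all in cGAS-KO;HD against cGAS-KO. Nkx6-2 was at -0.0928 without both of those libraries and at -0.0934 to 0.368 with 1 library left out, the lowest without cGAS-KO replicate 3. With 1 library left out, Dlx1 ranged over -0.0743 to 0.122 and Dlx2 over -0.0033 to 0.216, both negative only without cGAS-KO;HD replicate 1. The causes were not tested. Of 502 recomputed values of single genes, 464 kept their direction and side of the threshold, 20 lost a call and 14 gained one. Silent members numbered 21 under 0.05 CPM and 31 under 0.2 CPM. The filter of 1 CPM in 3 libraries removed Nkx6-1 from the test, and with the compared groups alone Onecut1 lost its call in HD against WT (edgeR adjusted p = 0.111) and Nkx2-2 and Nkx6-1 theirs in cGAS-KO;HD against cGAS-KO (0.0533 and 0.0545).

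The replicate numbers did not pair the samples: deviations of same-numbered libraries from their group means correlated at -0.23 to 0.20 over 18 pairs, 2 of them over 0.1, and 1 of 12 libraries correlated best with its own number. With the number as a block, 4 members were higher in HD against WT, Nkx2-2 having an edgeR adjusted p of 0.0537, and 5 in cGAS-KO;HD against cGAS-KO.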
